A study of Amphimedon queenslandica and Mnemiopsis leidyi and Nematostella vectensis with 36 samples.

Results

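GLI-only regions are stretches of the genome of the marine sponge Amphimedon queenslandica where the GLI protein had a binding peak and none of 4 other transcription factors did. The study tested 5 factors (NRF, YY1, EGR, GLI and SP41) in 8 constructs, and each construct gave 1 peak list on native and 1 on amplified genomic DNA, 16 lists in all. All peaks were pooled, and those sharing at least 1 bp on a contig were joined into regions. Members were chosen by the presence of peaks in these lists: every peak of the region had to come from a GLI list. This left 4997 of the 52356 regions, or 9.54% (95% Wilson interval 9.30 to 9.80). They cover 1015443 bp, which is 0.609% of the effective genome size given to the peak caller.

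The binding was done in a test tube. DNA from swimming larvae at 0 h, from individuals of Heron Island, was sheared to a mean of 200 bp. For DAP-seq the fragments, with adapters, were offered directly to the protein, so they kept the methylation of the animal. For ampDAP-seq they were first copied by 11 cycles of PCR, which leaves copies without methylation. All constructs carried the HaloTag, a protein tag used for capture, and were made by in vitro translation. GLI was tested only as its isolated DNA binding domain (DBD), and the control on either DNA was a library with the HaloTag alone. The GLI libraries held 2711118 usable fragments on native and 2886198 on amplified DNA, within the range of 2161903 to 3168602 over all 16. The other 20 samples of the series have no peak list analysed here. Each construct had 1 library on each kind of DNA, so no value below has a replicate error and no test between libraries was made. Intervals are 95% Wilson intervals for shares and cover counting error only.

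GLI proteins are zinc finger transcription factors that carry the Hedgehog signal to its target genes in vertebrates, and the fly protein Cubitus interruptus belongs to the same family. Sponges have a GLI gene, although Amphimedon is known for Hedgehog-related proteins (hedgling) and not for a Hedgehog ligand of the kind found in flies and vertebrates. Of the other factors, EGR and SP proteins bind GC-rich DNA with their zinc fingers in vertebrates, and YY1 is a further zinc finger protein. Cytosine methylation can strengthen or weaken the binding of a factor, and comparing native with amplified DNA is a common way to look for such an effect. No genome sequence was used here, so the regions are described by position, strength and neighbourhood.

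Most GLI-only regions were found on 1 kind of DNA. On native DNA alone there were 2981 regions, 59.7% (58.3 to 61.0), on amplified DNA alone 1231, 24.6% (23.5 to 25.8), and on both 785, 15.7% (14.7 to 16.7). Over all merged regions of any factor, 45.3% held peaks on both kinds of DNA, though a region with several factors has more lists in which to be found. The GLI lists differed in length, with 8828 peaks on native and 4837 on amplified DNA. With every longer list limited to its 4837 strongest peaks, 39.9% (38.5 to 41.2) of 5035 GLI-only regions were on native DNA alone, 43.4% (42.0 to 44.7) on amplified DNA alone and 16.8% (15.8 to 17.8) on both. The share on both kinds of DNA thus rose slightly, to just above its interval with the full lists. The order of the other classes turned. With all 16 lists restricted to peaks of at least 5-fold enrichment, 4.70% (3.60 to 6.11) of 1106 GLI-only regions were on both, since a partner then had to reach that enrichment too.

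The share of GLI regions found on both kinds of DNA was higher where other factors were present. GLI itself had peaks on both in 23.3% (22.2 to 24.3) of the 6331 regions that it shared with at least 1 other factor. With 1 other factor the share was 21.5% (20.0 to 22.9), with 2 it was 23.1% (21.5 to 24.8) and with 3 it was 30.7% (27.3 to 34.3). The 49 regions with all 5 factors reached 38.8%, with an interval from 26.4 to 52.8. These shares were not tested against each other, since they come from the same pair of GLI libraries and were sorted by lists that enter the choice of members.

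**Figure D1:**
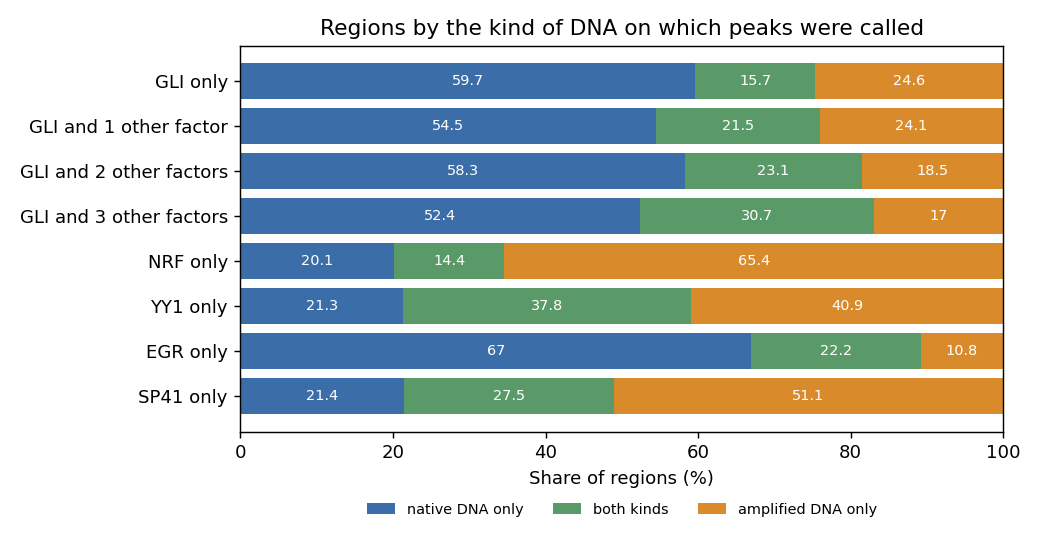
Share of regions (%) by the kind of DNA on which peaks were called, for GLI-only regions, GLI regions with other factors (counting GLI peaks) and regions of single other factors. GLI-only regions have 59.7% on native DNA only and 15.7% on both kinds, against 37.8% on both for YY1-only regions.

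The shares of the other factors by kind of DNA also moved when the lists were shortened. In the lists as deposited, 67.0% (65.5 to 68.5) of 3755 EGR-only regions were on native DNA alone. The regions of SP41 alone, YY1 alone and NRF alone had 21.4%, 21.3% and 20.1% there. In its share on both kinds of DNA, GLI was close to NRF with 14.4% (12.3 to 16.9) of 879, and below EGR with 22.2%, SP41 with 27.5% and YY1 with 37.8% (37.0 to 38.5). The native list was the longer for GLI, EGR (12855 against 6336 peaks) and YY1 full length, and the amplified list for NRF, SP41 and YY1 DBD. With each list held to at most its 4837 strongest peaks by −log10 q, a comparison added after the data were seen, the native-only share was 25.3% (23.5 to 27.1) for EGR, 44.9% for YY1, 36.5% for SP41 and 20.4% for NRF, against 39.9% for GLI. The NRF lists and both YY1 full length lists were shorter than that limit. The share on both kinds of DNA was then 32.5% for EGR, 34.1% for YY1, 29.7% for SP41 and 16.5% for NRF, against 16.8% for GLI. NRF, YY1 and SP41 were each tested with a full length and a DBD construct, which gives their regions 4 lists against 2 for GLI and EGR.

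GLI-only regions made up 44.1% (43.2 to 45.0) of the 11328 regions with a GLI peak. The same share was 44.0% for NRF, 44.7% for SP41, 27.7% for EGR and 71.1% for YY1. SP41 was the most frequent partner of GLI, in 38.9% of the GLI regions, before EGR in 28.0%, YY1 in 21.4% and NRF in 3.12%. Over all 52356 merged regions, SP41 had a peak in 23412, YY1 in 23277, EGR in 13549 and NRF in 1997. The shares were not tested against these counts and are no measure of preference. Leaving out another factor's lists can only add GLI-only regions. Without the SP41 lists their number was 6511, without YY1 6042, without EGR 5649 and without NRF 5095. Partners counted on either kind of DNA. Of the native GLI peaks, 745 were overlapped by another factor on amplified DNA only, and of the amplified ones 239 on native DNA only.

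The GLI peaks in GLI-only and in shared regions had nearly the same fold enrichment on native DNA, and on amplified DNA the GLI-only median was slightly higher. Fold enrichment is the authors' ratio of fragments at a peak's summit to a local background estimated with the control library. On native DNA its median was 3.80 (quartiles 3.16 and 4.48, n = 3766 peaks) in GLI-only and 3.76 (3.12 and 4.52, n = 5062) in shared regions. On amplified DNA it was 3.76 (3.10 and 4.50, n = 2020) against 3.63 (2.96 and 4.50, n = 2817). Of the GLI-only peaks, 505 or 13.4% on native DNA had at least 5-fold enrichment, where all GLI DAP peaks had 14.1%. On amplified DNA it was 293 or 14.5%, where all GLI ampDAP peaks had 15.2%. These shares lie near those of the whole lists.

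By the caller's q-value and by fragments, GLI-only peaks were weaker. The median −log10 q was 5.69 against 6.28 on native and 6.10 against 6.49 on amplified DNA. The median pileup, the number of fragments over the summit, was 22 against 25 on native and 25 against 29 on amplified DNA. The peaks were also shorter, with median lengths of 178 against 199 bp and 162 against 175 bp. The deposited values show a pseudocount of 1 on both sides of the fold, so the local background was taken as (pileup + 1)/fold − 1. Its median was 5.20 fragments in GLI-only and 6.01 in shared peaks on native DNA, and 6.01 and 7.01 on amplified DNA.

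**Figure D2:**
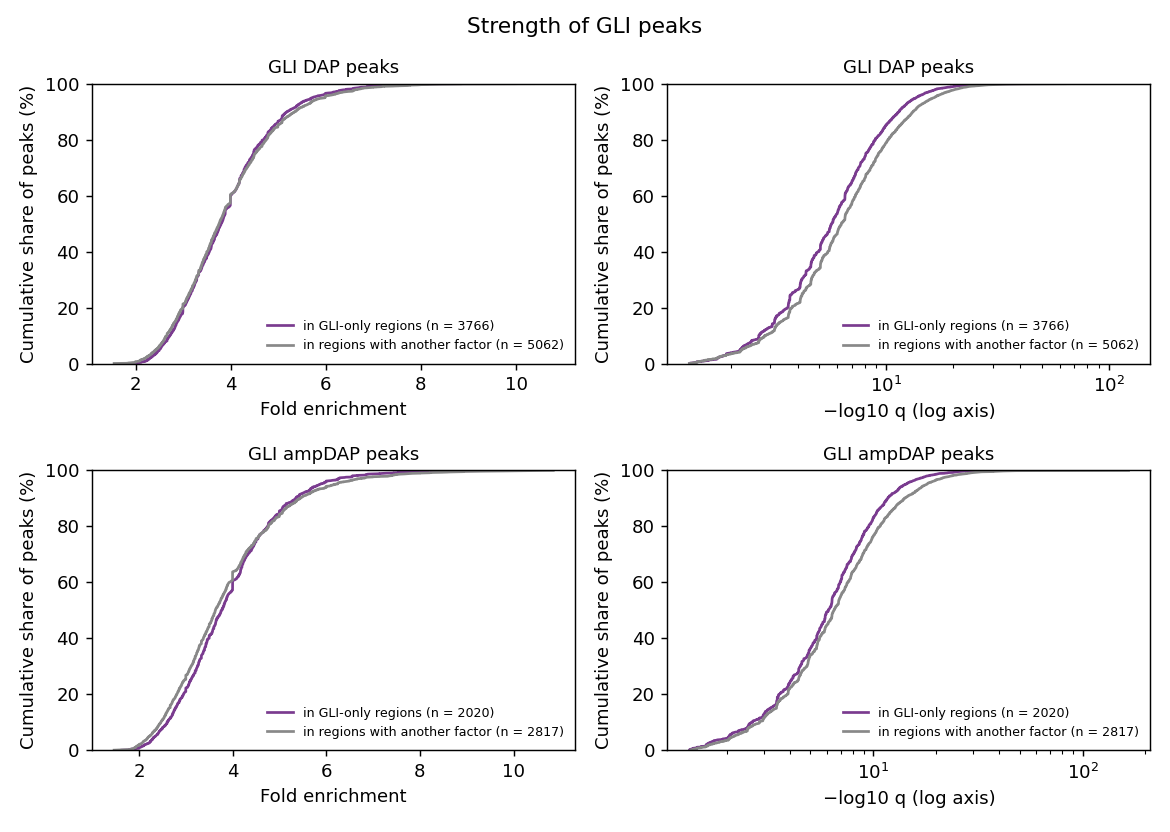
Cumulative share of GLI peaks (%) against fold enrichment (linear axis) and −log10 q (log axis), for peaks in GLI-only regions and in regions with another factor, on native (DAP) and amplified (ampDAP) DNA. The fold curves nearly coincide on native DNA, with medians of 3.80 and 3.76, and on amplified DNA the GLI-only curve lies to the right below 4-fold, while the −log10 q curves of GLI-only peaks lie to the left, with medians of 5.69 and 6.28.

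The share of GLI peaks without another factor was lowest among the strongest peaks by −log10 q. Longer peaks meet another factor's peak more easily, and the part of peak length in this was not tested. Among the strongest decile by −log10 q, 29.8% (26.9 to 32.9) of the native and 29.8% (25.9 to 34.0) of the amplified GLI peaks lay in GLI-only regions. In the second decile the shares were 39.9% and 38.0%, and in the weakest they were 48.0% (44.7 to 51.3) and 45.5% (41.1 to 49.9). Ranked by fold enrichment no such slope was seen: the native shares were 38.6% in the strongest and 37.7% in the weakest decile, with 40.9 to 46.9% between, and the amplified ones 39.0% and 34.5%, with 38.0 to 47.4% between. Of the strongest 100 native peaks by −log10 q, 26 were GLI-only, 19 of them on both kinds of DNA, and of the strongest 100 amplified peaks 22 were, 13 of them on both. By fold enrichment there were 34 and 30, of which 12 and 18 were on both.

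**Figure D3:**
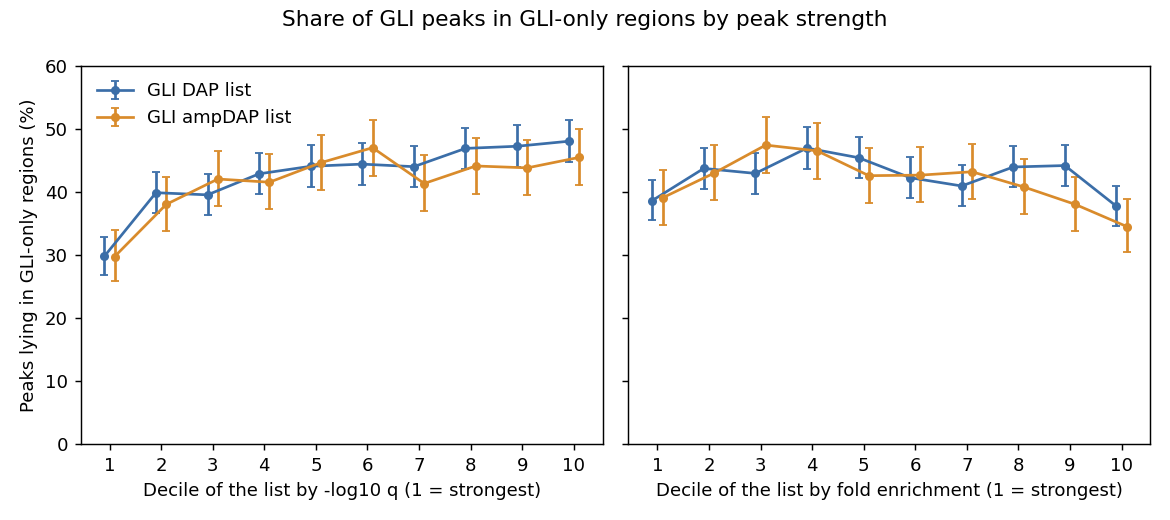
Share of GLI peaks lying in GLI-only regions (%) in each decile of the GLI DAP and GLI ampDAP lists, ranked by −log10 q (left) or fold enrichment (right), with 95% Wilson intervals. By −log10 q the share goes from 29.8% in the strongest decile to 48.0% and 45.5% in the weakest, and by fold enrichment it shows no such slope.

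The share of peaks with a GLI peak on the other kind of DNA was lower for GLI-only than for all GLI peaks. On native DNA 785 of 3766 GLI-only peaks, 20.8% (19.6 to 22.2), overlapped an ampDAP peak, where all GLI DAP peaks had 25.4%. On amplified DNA 789 of 2020, 39.1% (37.0 to 41.2), overlapped a DAP peak, where all GLI ampDAP peaks had 46.6%. The shared peaks had 28.9% and 51.9%. The shares were also set side by side within quartiles of each list by −log10 q. In the strongest quartile they were 37.2% (33.9 to 40.7) for GLI-only and 42.6% (40.1 to 45.2) for shared native peaks. For amplified peaks they were 53.4% (48.7 to 58.0) against 69.1% (65.8 to 72.3). In the weakest quartile they were 11.2% against 18.5% and 29.9% against 41.8%. Strength is not matched within the strongest quartile, which has no upper limit. The highest −log10 q was 62.9 for GLI-only and 122.5 for shared native peaks, and 51.3 and 166.0 for amplified ones. Longer peaks meet a partner more easily, and shared peaks were longer, but the part of peak length in these shares was not tested. When a partner was instead a GLI summit within 50 bp, a measure added after the data were seen, the shares were 16.7% (15.5 to 17.9) against 22.0% (20.9 to 23.1) on native and 31.1% (29.2 to 33.2) against 39.5% (37.7 to 41.3) on amplified DNA. By that measure too, the GLI-only share was the lower in every quartile of both lists. In the strongest native quartile it was 33.1% (29.9 to 36.5) against 36.5% (34.0 to 39.0). In the weakest native quartile it was 7.17% (5.77 to 8.88) against 11.6% (9.87 to 13.6). In the strongest amplified quartile it was 48.3% (43.6 to 53.0) against 59.2% (55.7 to 62.5). In the weakest amplified one it was 19.0% (15.9 to 22.6) against 26.4% (23.3 to 29.9). The intervals overlapped in the 3 stronger native and both middle amplified quartiles. They cover counting error only, so their overlap or separation is no test.

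Of the GLI-only regions, 4212 held a single peak, 781 held 2 and 4 held 3. The 785 regions on both kinds of DNA held 789 overlapping pairs of a native and an amplified peak. Peaks were paired because they overlap, so summits close together are in large part given by that choice. The summits of a pair were a median of 19 bp apart (quartiles 8 and 42), and in 79.7% (76.8 to 82.4) of pairs they lay within 50 bp. In 361 pairs the shorter peak lay wholly inside the longer, and the native peak was the longer in 538. The shortest native GLI peaks were 144 bp long and the shortest amplified ones 136 bp. In 61 pairs the summits were more than 100 bp apart. Within these pairs, strength on native DNA went only loosely with strength on amplified DNA. The pairs had to pass the q-value cutoff in both lists and lie in GLI-only regions, which limits their range of strength. Spearman's rho across the 789 pairs was 0.38 for −log10 q and 0.27 for fold enrichment, as a description across regions of the same pair of libraries. Of the pairs, 121 were among the strongest 10% of the native list and 89 among the strongest 10% of the amplified list, and 43 were in both. At least 5-fold enrichment was reached in both libraries by 35 pairs, in the native one only by 125 and in the amplified one only by 76.

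**Figure D4:**
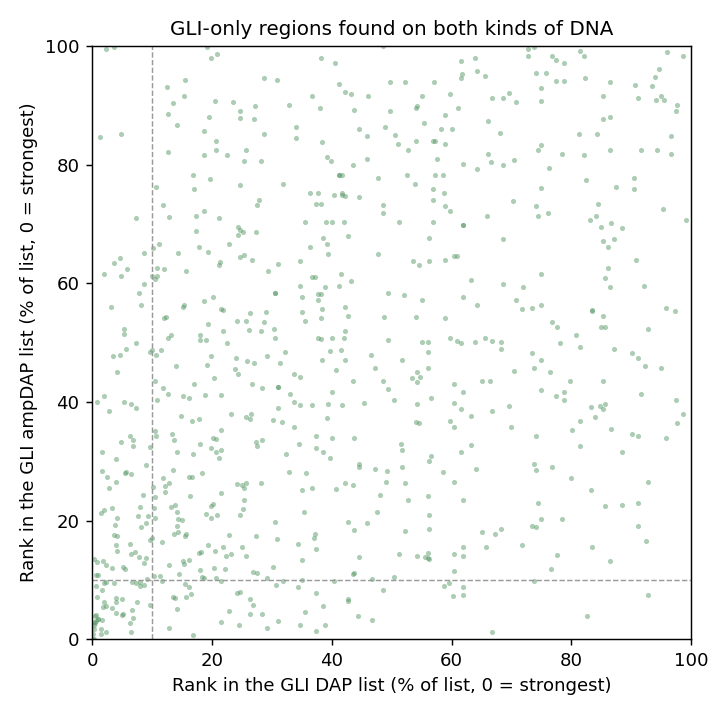
Rank of each of 789 overlapping pairs of GLI peaks in GLI-only regions, in the DAP list (x) and the ampDAP list (y), as % of the list with 0 for the strongest; dashed lines mark 10%. The points spread over the whole plot, and 43 pairs are among the strongest 10% of both lists.

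Regions on both kinds of DNA were stronger on native DNA than those on native DNA alone, with a median fold enrichment of 3.99 (95% interval of the median 3.89 to 4.12) against 3.74 (3.71 to 3.79), a median −log10 q of 7.25 against 5.32 and a median of 28 against 21 fragments. On amplified DNA the fold enrichment did not show this, with 3.75 (3.63 to 3.83) for regions on both and 3.78 (3.68 to 3.85) for regions on amplified DNA alone, whereas the median −log10 q was 6.89 against 5.61 and the pileup 30 against 22 fragments. Of the peaks in regions on native DNA alone, 11.6% had at least 5-fold enrichment, against 20.3% of the native peaks in regions on both. On amplified DNA these shares were 14.8% and 14.1%. Few of the regions on 1 kind of DNA had a GLI peak close by on the other: 5 of the 2981 native regions had an amplified GLI peak within 100 bp and 136 within 500 bp, and 6 and 101 of the 1231 amplified regions had a native one.

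Among the regions on both kinds of DNA, the strongest on native DNA was at contig 13376, positions 82159 to 82377. It had 148 fragments, a −log10 q of 62.9 and 6.33-fold enrichment on native DNA, rank 5 of the list by −log10 q, and 128 fragments, 27.0 and 3.44-fold on amplified DNA, rank 43. Its summits were at 82252 and 82251. By fold enrichment it ranked 250 on native and 2879 on amplified DNA, over a local background of 22.5 and 36.5 fragments. The region at contig 4763, positions 355 to 528, was the strongest on amplified DNA, with 144 fragments, a −log10 q of 51.3 and 5.27-fold enrichment, rank 4, and had 114 fragments, 45.3 and 5.89-fold on native DNA, rank 8. The region at contig 9130, positions 285 to 470, ranked 21 on native DNA with 5.77-fold and 6 on amplified DNA with 7.90-fold enrichment. No other factor had any peak on the contigs 4763 and 9130.

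Other strong regions differed more between the libraries. The one at contig 13506, positions 439566 to 440076, ranked 25 on native DNA with 7.16-fold and 653 on amplified DNA with 3.33-fold enrichment. At contig 13502, positions 36898 to 37087, the order was turned, with 4.53-fold and rank 1484 on native and 9.25-fold and rank 33 on amplified DNA. The regions at contig 13481, positions 292951 to 293253, and contig 13108, positions 27665 to 27894, were closer, with 6.35-fold against 4.71-fold and 4.78-fold against 5.26-fold.

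The strongest region on native DNA alone was at contig 12976, positions 1769 to 1965. It had the highest fold enrichment of all 8828 native GLI peaks, 10.8-fold with 53 fragments, and rank 13 by −log10 q. No GLI peak was on the amplified list there, and the nearest peak of another factor, YY1 DBD on amplified DNA, began 77 bp away. Next came contig 11921, positions 10532 to 10862, with 8.82-fold, contig 13455, positions 41555 to 41916, with 7.86-fold, and contig 13506, positions 111219 to 111431, with 7.37-fold enrichment. The last of the 5, at contig 12650, positions 223 to 415, had 118 fragments but 3.30-fold enrichment, over a local background of 35.1 fragments.

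The strongest regions on amplified DNA alone included some with many fragments over a high local background. Those at contig 13446, positions 223747 to 223931, contig 11351, positions 2009 to 2163, and contig 13238, positions 121620 to 121759, had 107, 163 and 99 fragments, 5.26-fold, 3.64-fold and 4.16-fold enrichment and a local background of 19.5, 44.0 and 23.0 fragments. The other two, at contig 13520, positions 93788 to 94024, and contig 13514, positions 648805 to 648988, had 54 and 47 fragments but 7.24-fold and 7.99-fold enrichment. A local background over 20 fragments was rare among GLI-only peaks, with 17 of 3766 on native and 35 of 2020 on amplified DNA, and it was held by 4 and 5 of their 20 strongest peaks by −log10 q and by 0 and 0 of the 20 strongest by fold enrichment. Among shared GLI peaks it was found in 89 of 5062 and 131 of 2817. The local background was computed by dividing by the fold, so its absence from the strongest peaks by fold enrichment is in large part given. The part of the local background in the q-values was not tested.

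GLI-only regions were narrow, with a median of 175 bp (quartiles 154 and 221), and 50 were wider than 500 bp. The shortest GLI peaks were 144 bp on native and 136 bp on amplified DNA, equal to the fragment lengths of these libraries. The lower limit of the widths thus differs between the lists. The median was 174 bp for regions on native DNA alone, 156 bp on amplified DNA alone and 227 bp on both, where peaks were joined. Shared GLI regions, which join peaks of several lists, had a median of 326 bp. Their GLI peaks were also longer than those of GLI-only regions. The medians were 199 against 178 bp on native and 175 against 162 bp on amplified DNA. The part of the joining was not tested. The widest GLI-only region, at contig 13515, positions 382067 to 383172, was 1106 bp long and came from a single native peak of 4.50-fold enrichment. The next, at contig 13502, positions 28551 to 29530, joined a native peak of 980 bp with an amplified one of 179 bp whose summits were at 28648 and 29427. The third widest, at contig 13522, positions 1095468 to 1096366, was a native peak of 2.08-fold enrichment.

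Though without another factor's peak, GLI-only regions lay near such peaks. The median gap to the nearest one was 687 bp (quartiles 296 and 1487) for the 4761 regions with another factor on the contig, and 236 had none there. Within 500 bp another factor was found for 38.1% (36.7 to 39.4) of GLI-only regions, against 35.2% (33.7 to 36.7) of EGR-only, 33.8% of SP41-only, 33.0% of NRF-only and 25.8% (25.2 to 26.5) of YY1-only regions. The other factors seen from each set differ in number of peaks, so these shares are values side by side and were not tested. The gap was alike for regions on native DNA alone, on amplified DNA alone and on both, with medians of 671.5, 728.5 and 697 bp. Where a neighbour lay within 500 bp, it was YY1 in 44.9% of 1903 regions, SP41 in 34.6%, EGR in 18.1% and NRF in 2.42%. Over all merged regions, YY1 had a peak in 23277, SP41 in 23412, EGR in 13549 and NRF in 1997. The neighbour shares were not tested against these counts, and regions that overlap another factor are left out by the rule.

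**Figure D5:**
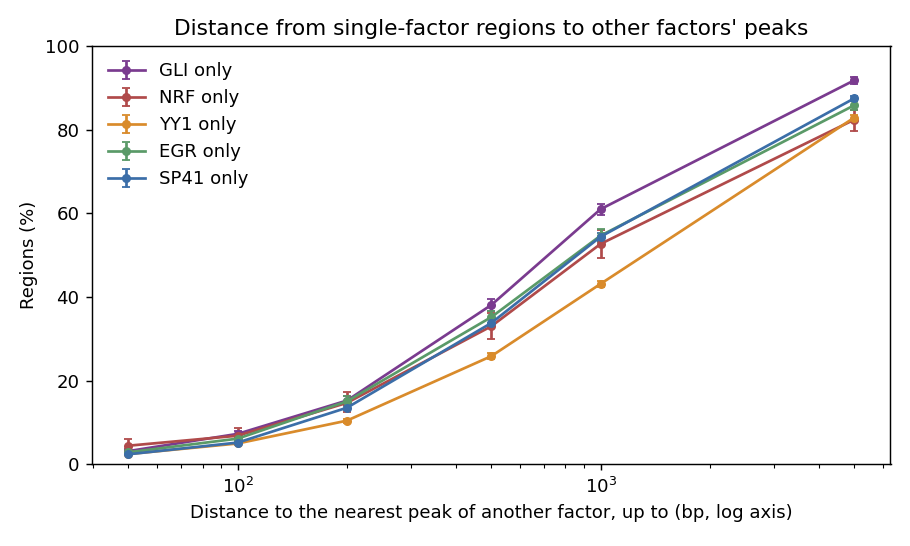
Share of single-factor regions (%) with a peak of another factor within a given distance (bp, log axis), with 95% Wilson intervals. At 500 bp the GLI-only regions are at 38.1% and the YY1-only regions at 25.8%.

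The rule's limit of 1 bp separated like cases. Just inside it, the GLI-only regions at contig 12010, positions 10349 to 10509, contig 12287, positions 1324 to 1489, and contig 13507, positions 113008 to 113188, touched a peak of EGR, SP41 and YY1 with a gap of 0 bp, and had 4.48-fold, 3.59-fold and 4.66-fold enrichment. Just outside it, at contig 10455, positions 1898 to 2548, contig 13437, positions 63515 to 64133, and contig 13450, positions 137180 to 138006, a GLI peak shared at most 1 bp with another factor's peak, with 2.66-fold, 3.17-fold and 5.18-fold enrichment on native DNA. Such cases were few: 32 GLI-only regions had a gap of at most 10 bp, and 26 shared regions an overlap of at most 10 bp. Of the 7879 GLI peaks in shared regions, 51 touched no other factor themselves and were joined through another GLI peak.

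GLI-only regions were spread over 1259 of the 5516 contigs with any peak. A single GLI-only region was found on 720 of these contigs, while 126 contigs with at least 10 held 2672. Neighbours on a contig were a median of 10807 bp apart, and 159 of 3738 neighbouring pairs lay within 500 bp of each other. The contigs with the most were 13521 with 94, 13520 with 90 and 13522 with 85, where GLI-only regions were 12.5%, 14.8% and 9.49% of all regions. On contigs whose highest peak position was at most 5000 bp, GLI-only regions were 7.93% (7.18 to 8.76) of all regions, and over 500000 bp they were 10.6% (9.99 to 11.2). Their share of the GLI regions was alike there, 45.7% (42.2 to 49.2) and 43.5% (41.5 to 45.4). The share of GLI-only regions on both kinds of DNA was 10.7% of 355 on the smallest and 18.7% of 1082 on the largest of these contigs. The same share was not computed for shared GLI regions or other factors. Whether the difference is particular to GLI-only regions therefore cannot be said.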

How the data were processed

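Of 36 samples, the 16 DAP-seq and ampDAP-seq libraries with a peak list were used, grouped by sample title. Peaks were called by the authors for each library with MACS2 2.1.2, per the file headers, from paired fragments against the HaloTag-only library of the same DNA (2626764 usable fragments for DAP, 2865511 for ampDAP), at a q-value cutoff of 0.05, with at most 1 duplicate, after random down-sampling of the larger library. The deposited pileup is a signal of coverage in fragments, the fold enrichment a ratio to local background, and the p-values and q-values are −log10 values, all per the file headers. Aligner settings and genome build are not given in the sources used here. Both YY1 DAP headers name a run letter C where the others have B. Weak peaks near the cutoff can change with down-sampling.

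Regions, classes, gaps and shares were computed with Python 3.11.15, pandas 2.3.3, numpy 2.4.6 and scipy 1.17.1. In simulated lists, 5000 of 5000 planted regions came back with their factors and kind of DNA, and the 52356 regions were identical to those of bedtools 2.31.1. Medians carry order-statistic intervals. Named regions were the 5 strongest by −log10 q in each class and library, the 3 widest, and the 3 nearest to the rule's limit on either side. Members, rules and alternatives were chosen with earlier results of these data known. A table of gene names has no contig names and was not used, so no region carries a gene.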

Additional observations from a re-analysis of the deposited data

Results flagged for a closer look

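Dixon's test was applied to 5 measures of single-factor regions, each over the 5 factors, and about 1 in 20 groups is picked out by it through chance. The median gap from YY1-only regions to the nearest peak of another factor, 1118 bp, stood apart from the other factors, which lay between 687 bp for GLI and 766 bp for SP41. The other 4 measures picked out no factor.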

How the results depend on the processing

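Over 12 alternatives, 43 values stayed within the interval of the reported value (for the number of regions, within 1.5 times) and 23 moved. These limits are unlike in width, so the results are not ranked by stability. The GLI-only share of GLI regions left its interval in 11 of the 12 alternatives. It became 47.2% at a −log10 q of at least 5, 59.0% at 5-fold or more and 41.1% with gaps of up to 100 bp joined. It was 46.3% with at least 50 bp of overlap needed and 46.1% with DBD lists only. With each list held to at most 4837 peaks it was 62.2%. It was 51.7% with DAP lists only and 47.4% with ampDAP lists only. Without YY1, EGR and SP41 it was 53.3%, 49.8% and 57.3%. Leaving out another factor's lists can only add GLI-only regions. The number of regions became 1106 at 5-fold or more and 2290 with ampDAP lists only, where fewer peaks enter. The native-only share became 58.0% at a −log10 q of at least 5 and 62.3% at 5-fold or more. With lists of at most 4837 peaks it was 39.9%. The share on both became 4.70% at 5-fold or more and 16.8% with lists of at most 4837 peaks. Median fold enrichment, which these limits raise by construction, became 4.30 (DAP) and 4.21 (ampDAP) at a −log10 q of at least 5. It was 5.51 and 5.66 at 5-fold or more, and 4.40 for DAP with lists of at most 4837 peaks. No paired analysis was possible because each construct and kind of DNA has 1 library. Classes by kind of DNA have no value where 1 kind of list is used.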
